A study of Mus musculus with 6 samples.

Results

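The immunity-related GTPases and the very large inducible GTPases of the mouse were followed in 6 RNA libraries. The set holds 10 listed genes (Irgm1, Irgm2, Igtp, Iigp1, Gm4951, Ifi47, Tgtp1, Tgtp2, Gm12250 and Gm4070), out of 35856 genes with a target in the files. They were selected on their difference between libraries labelled 4OHT and EtOH, so that difference is given for them as a description, with no test. For 9 of the 10 the files held at least 1 target, and all 9 passed the filter on low counts. Gm12250, an effector also called Irgb10, matched no target and its RNA was not analysed here. Tgtp1 and Tgtp2, which are near-identical, are also given as a sum.

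All libraries are labelled as cultured cells of the genotype Mdm2fl/fl p53-/-, that is with a floxed Mdm2 allele and without p53. Mdm2 encodes the ubiquitin ligase that restrains p53, and the study asked which genes differ once it is deleted where p53 is missing. The 3 libraries labelled 4OHT are labelled Mdm2 deleted and came from cells given 1 mM 4-hydroxytamoxifen (the dose as the labels state it), which activates the recombinase CreERT2. The 3 libraries labelled EtOH are the vehicle control. Each arm has 1 library labelled fibroblast (cells grown out of ear tissue of adult mice), 1 labelled T cell lymphoma and 1 labelled sarcoma, both of them tumour cells in short-term culture. The labels give an exposure of 6 h for lymphoma cells and of 48 h for the other cells. A retrovirus delivered CreERT2 with GFP, or GFP alone, and the labels do not say which vector a library had. Cells with GFP alone that received 4-hydroxytamoxifen are not among the labels, so deletion, drug and recombinase cannot be told apart. The number of mice or tumours behind the libraries is not given in the sources used here, and p-values therefore measure the spread between these libraries, which may be technical.

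Immunity-related GTPases are made by mouse cells after interferon and act against bacteria and parasites that live inside vacuoles. In the mouse the family falls into 2 functional classes. The effectors, called GKS proteins after a lysine in their nucleotide-binding loop, load onto the vacuole membrane and break it. The regulators, called GMS or IRGM proteins because a methionine stands in place of that lysine, sit on the cell's own membranes and hold the effectors inactive there. The very large inducible GTPases, of which Gm4070 is one, are giant interferon-induced relatives whose role is less well known. Interferon acts on such genes through promoter elements of 2 kinds, called GAS and ISRE.

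Several facts of the whole series touch every result. The libraries had 26243064 to 37517726 estimated counts. The values went against the label T cell lymphoma. Of the 10 T cell markers, Cd3d, Cd3e and Cd247 were at 0 in all 6 libraries. The list summed to 3.72 to 4.30 CPM in libraries labelled 4OHT and 1.89 to 2.23 CPM in those labelled EtOH, nearly all of it Lck. The 8 fibroblast markers summed to 7462 to 7623 CPM in libraries labelled 4OHT, against 13140 to 13600 CPM in libraries labelled EtOH. All 7 that were tested fell by edgeR (BH-adjusted p under 0.05), as did 24.6% of all genes. The libraries labelled lymphoma had as much of these markers as the others. The 7 leukocyte and macrophage markers summed to 26.1 to 29.4 CPM under the label 4OHT and 26.4 to 28.1 CPM under the label EtOH, mostly Cd14, which fell by 0.22 on the log2 scale. Within that sum Cd68 (0.48), Csf1r (1.30) and Itgam rose by edgeR (BH-adjusted p under 0.05), as did 25.0% of all genes. Itgam had 15 to 29 counts in libraries labelled 4OHT and 0 or 1 in those labelled EtOH. The endothelial marker Pecam1 also rose by edgeR (log2 fold change 2.09). Pecam1 had 0.754 CPM under the label 4OHT and 0.173 CPM under the label EtOH. Csf1r, Itgam and Pecam1 passed the filter on low counts through the libraries labelled 4OHT, so their direction was set by that filter. DESeq2 did not call Cd68 (BH-adjusted p = 0.0702) or Csf1r (0.183). Mdm2 stood at 30.9 ± 0.342 CPM in libraries labelled 4OHT and 28.3 ± 0.246 CPM in libraries labelled EtOH (SD, n = 3 each) and was not called by edgeR (BH-adjusted p = 0.0539), though it was called higher without the replicate block (0.0349) and among protein-coding genes only (0.0217). Trp53 had 25.7 ± 2.41 CPM under the label 4OHT and 24.4 ± 2.29 CPM under the label EtOH, in cells labelled p53-null. A sum over whole transcripts can hold reads from outside the deleted exons, so neither value by itself checks a deletion. All groups below are therefore groups of labels. The differences in these markers move with every 4OHT against EtOH difference below, and their part in them was not tested. In bulk RNA, fewer cells of a type and less RNA per cell cannot be told apart.

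The codons of the nucleotide-binding loop show which class each immunity-related GTPase belongs to. Each stretch below is the coding strand, 5′ to 3′, from the GENCODE M21 transcripts, and the capitals mark the codon for the methionine of regulators or the lysine of effectors.
Irgm1: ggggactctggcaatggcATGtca
Irgm2: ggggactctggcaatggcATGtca
Igtp: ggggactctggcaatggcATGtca
Ifi47: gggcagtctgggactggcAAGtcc
Tgtp1: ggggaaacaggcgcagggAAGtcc
Tgtp2: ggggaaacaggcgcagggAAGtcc
Gm4070: ggcctgcagagctcagggAAGtct
The 3 regulators share the same 24 bases, starting at codon 83 in Irgm1 and Irgm2 and at codon 91 in Igtp. Iigp1 and Gm4951 also carry the lysine codon AAG, at codons 76 to 83 and 75 to 82 of their coding sequences. Gm4070, a very large GTPase, also has the lysine codon but is not counted as an effector here. Its loop starts at codon 1495 of 2427, far inside a protein several times the length of the others, which have 406 to 423 codons.

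Some promoters of the chromosome 11 genes share a layout of short motifs. RefSeq promoter windows (GRCm38.p6) were found for 7 of the 10 genes and searched over the 250 bases before the start site for the ISRE core GAAANNGAAA, on both strands, and for the GAS core TTCNNNGAA, which is its own reverse complement. In the stretches below, written 5′ to 3′ on the gene's strand, capitals mark the matches.
Irgm1: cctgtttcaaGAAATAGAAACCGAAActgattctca
Irgm2: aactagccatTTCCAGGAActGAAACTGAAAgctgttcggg
Igtp: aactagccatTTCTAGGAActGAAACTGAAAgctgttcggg
Tgtp1: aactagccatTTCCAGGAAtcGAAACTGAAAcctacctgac
Tgtp2: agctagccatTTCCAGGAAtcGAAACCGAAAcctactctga
Gm12250: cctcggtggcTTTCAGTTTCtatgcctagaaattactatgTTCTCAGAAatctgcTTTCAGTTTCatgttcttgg
Irgm2, Igtp, Tgtp1 and Tgtp2 each have a GAS core and, just after it, an ISRE core. Igtp and Irgm2 have them at chr11:58199501-58199541 and chr11:58214892-58214932 on the plus strand. Tgtp1 and Tgtp2 have them at chr11:48992304-48992344 and chr11:49064263-49064303 on the minus strand. Irgm1 has 2 overlapping ISRE cores at chr11:48871425-48871460 on the minus strand and no GAS core, Gm12250 has 2 ISRE cores and 1 GAS core at chr11:58183742-58183816 on the plus strand, and Ifi47 has neither. The stretches follow RefSeq start sites, which can differ from the GENCODE genes. That of Gm12250 lies before the GENCODE gene (chr11:58187739-58189012), which is typed there as a processed pseudogene. Those of Irgm1, Irgm2 and Tgtp1 lie inside the GENCODE genes. Of the 7 windows, 6 held the ISRE core, 5 the GAS core and 5 both, against 2.98%, 7.02% and 0.332% of all 32851 promoter windows. The stretches of Irgm2 and Igtp are near-identical, and those of Tgtp1 and Tgtp2 share most of their bases. The 5 windows with both cores are therefore not 5 independent cases. Of the 6 further listed genes of these families with a window, 1 held both cores (Gm12185). Gm1966, which has no target in the files, held 1 ISRE core and no GAS core. Irgq, Gm5431, 9930111J21Rik1 and 9930111J21Rik2 held neither. A match is a description of the letters and not of a bound site.

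The regulators were all higher in the libraries labelled 4OHT. Values are TMM-scaled CPM (counts divided by the scaled library size), given for the labels fibroblast, lymphoma and sarcoma in that order. Irgm1 (ENSMUSG00000046879.7, chr11:48861968-48871683, minus strand), which in mice is needed for defence against intracellular bacteria and for restraint of the effectors, had 210.3, 207.0 and 209.7 CPM in the libraries labelled 4OHT, against 25.9, 26.8 and 27.5 CPM in those labelled EtOH. Irgm2 (ENSMUSG00000069874.7, chr11:58199618-58222782, plus strand), a regulator found mainly on Golgi membranes, had 58.6, 59.6 and 61.5 CPM under the label 4OHT and 6.43, 5.47 and 6.27 CPM under the label EtOH. Igtp, also called Irgm3 (ENSMUSG00000078853.8, chr11:58199556-58207591, plus strand), a regulator of the endoplasmic reticulum and lipid droplets, had 148.7, 144.2 and 143.3 CPM under the label 4OHT and 11.6, 9.79 and 10.8 CPM under the label EtOH. In each of these genes the lowest library labelled 4OHT lay far above the highest library labelled EtOH, and the 3 labels within an arm stood close together.

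Irgm1 had the smallest ratio of the 9 genes. Its mean was 209.0 ± 1.80 CPM in libraries labelled 4OHT and 26.7 ± 0.831 CPM in libraries labelled EtOH (SD, n = 3 each), a ratio of 7.82 and a log2 difference of 2.94 ± 0.048 (mean and SD over the 3 labelled pairs, on the log2(CPM + 0.5) scale used throughout). Irgm2 averaged 59.9 ± 1.46 CPM under the label 4OHT and 6.05 ± 0.513 CPM under the label EtOH, a log2 difference of 3.21 ± 0.119. Igtp averaged 145.4 ± 2.91 CPM under the label 4OHT and 10.7 ± 0.901 CPM under the label EtOH, a log2 difference of 3.70 ± 0.098. The order of the 3 differences, Igtp over Irgm2 over Irgm1, was the same in each labelled pair. The annotated gene Irgm2 begins inside Igtp on the same strand, but the reads counted here come from their separate coding sequences, which are 67.9% identical. Of the stretches of 31 bases in those sequences, 84.7% in Igtp, 84.1% in Irgm2 and 98.6% in Irgm1 occur in no other coding sequence compared here.

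Among the effectors, Iigp1 and Ifi47 were the most abundant single genes per length. Iigp1, also called Irga6 (ENSMUSG00000054072.12, chr18:60376027-60392634, plus strand), a much studied effector that binds the vacuole of Toxoplasma, had 157.9, 159.1 and 152.7 CPM in libraries labelled 4OHT, against 9.51, 8.78 and 9.88 CPM in libraries labelled EtOH. Gm4951 (ENSMUSG00000073555.1, chr18:60212080-60247820, plus strand), whose coding sequence is 86.1% identical to that of Iigp1, had 20.9, 19.2 and 18.5 CPM under the label 4OHT and 0.878, 0.911 and 1.06 CPM under the label EtOH. Ifi47, also called Irgd (ENSMUSG00000078920.3, chr11:49076587-49096974, plus strand), had 121.6, 120.0 and 121.0 CPM under the label 4OHT and 11.3, 11.2 and 12.1 CPM under the label EtOH. None of these genes overlapped between the arms. The log2 difference was 3.99 ± 0.110 for Iigp1, 3.79 ± 0.176 for Gm4951 and 3.33 ± 0.051 for Ifi47 (mean and SD over 3 pairs).

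Gm4951 was the least expressed of the 9. It rested on 25, 27 and 40 counts in the libraries labelled EtOH, so the ratio within a pair had a wide 95% counting interval, from 12.6 to 24.7 in the pair labelled sarcoma and from 16.0 to 37.1 in the pair labelled fibroblast. The pseudocount of 0.5 CPM also pulls its log2 difference down, since its mean in libraries labelled EtOH was 0.9504 ± 0.0982 CPM. Counting intervals and floors cover counting error only, because PCR copies were not told apart.

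The 2 Tgtp genes, copies of a T cell-specific GTPase also known as Irgb6, stood furthest apart between the arms. Tgtp1 (ENSMUSG00000078922.9, chr11:48985327-48994172, minus strand) had 80.1, 78.7 and 84.1 CPM in libraries labelled 4OHT, against 2.74, 2.53 and 2.71 CPM in libraries labelled EtOH. Tgtp2 (ENSMUSG00000078921.3, chr11:49057194-49064206, minus strand) had 102.9, 101.4 and 104.0 CPM under the label 4OHT and 4.775, 2.768 and 4.195 CPM under the label EtOH. Their coding sequences agree at 1244 of 1248 bases, and only 8.10% of the stretches of 31 bases in Tgtp1 and 5.70% of those in Tgtp2 tell them from each other and from the rest of the family, so the split between them is uncertain. Their sum had 183.0, 180.2 and 188.1 CPM under the label 4OHT and 7.51, 5.30 and 6.90 CPM under the label EtOH. The sum averaged 183.7 ± 4.02 CPM under the label 4OHT and 6.57 ± 1.14 CPM under the label EtOH (SD, n = 3 each), a ratio of 28.0 and a log2 difference of 4.72 ± 0.226. For Tgtp1 alone the log2 difference was 4.69 ± 0.045 and for Tgtp2 alone 4.58 ± 0.347.

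The labelled pairs also differed in the size of the Tgtp difference. The ratio of the sum was 34.0 in the pair labelled lymphoma (95% Clopper-Pearson counting interval 29.0 to 40.1), 24.4 in the pair labelled fibroblast (21.2 to 28.1) and 27.3 in the pair labelled sarcoma (24.1 to 30.98). The interval of the pair labelled lymphoma lay above that of the pair labelled fibroblast and overlapped that of the pair labelled sarcoma. The library behind it is the one labelled lymphoma and EtOH, which had 157 counts of the sum (5.30 CPM). The other libraries labelled EtOH had 214 counts (7.51 CPM, label fibroblast) and 260 counts (6.90 CPM, label sarcoma, the deepest library). The interval covers counting error, and with 1 library on each side of a pair the difference between pairs was not tested. Tgtp2 alone had ratios of 36.7 (label lymphoma), 21.5 (fibroblast) and 24.8 (sarcoma). For 8 of the 9 genes the intervals of all 3 pairs overlapped each other, and Tgtp2 was the exception.

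**Figure D1:**
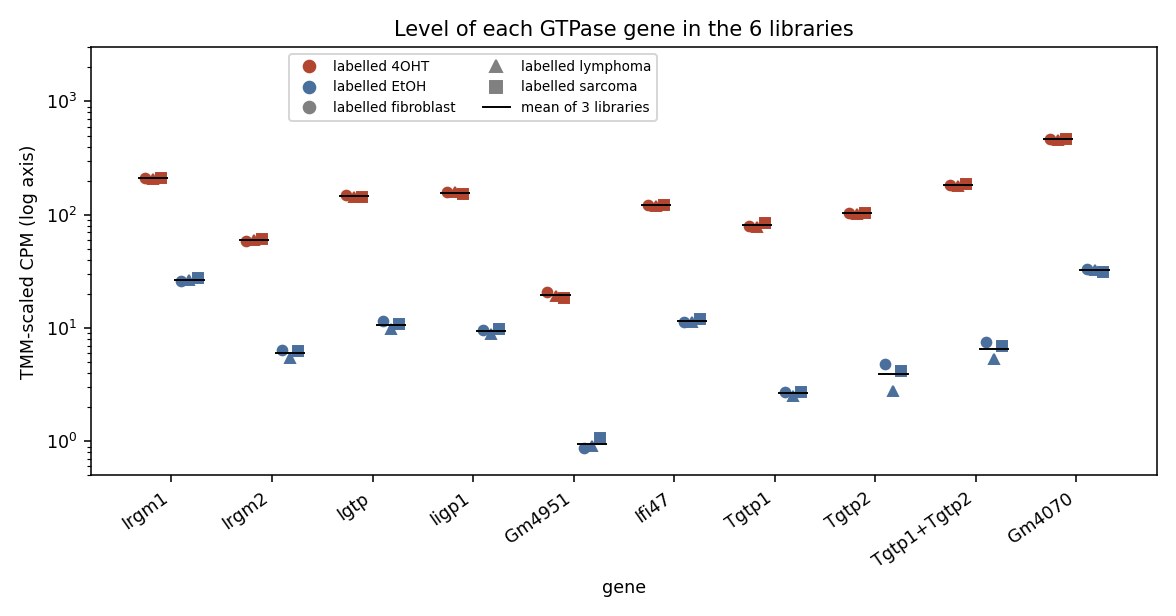
TMM-scaled CPM (log axis) of each gene in each library, libraries labelled 4OHT in red on the left and libraries labelled EtOH in blue on the right of each gene, with the cell type label given by the symbol and the mean of 3 libraries by a line. Red and blue points do not overlap for any gene, and the widest spread inside an arm is that of Tgtp2 in the libraries labelled EtOH, from 2.77 to 4.78 CPM.

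The very large GTPase Gm4070 (ENSMUSG00000078606.8, chr7:105895139-105953967, minus strand) gave the most reads because of its length of 7284 coding bases. It had 464.2, 456.8 and 467.8 CPM in libraries labelled 4OHT, against 33.49, 32.30 and 31.04 CPM in libraries labelled EtOH. The arms did not overlap, and the log2 difference was 3.82 ± 0.062. Its coding sequence differs from that of Gvin1, a neighbour on chromosome 7, at 3 of 7284 bases, and 1.30% of its stretches of 31 bases occur in it alone. The sum of Gm4070 and Gvin1, which does not depend on how reads were shared between them, was 652.1, 663.0 and 680.4 CPM under the label 4OHT and 44.9, 44.8 and 46.2 CPM under the label EtOH. Its log2 difference was 3.86 ± 0.014, with ratios of 14.5 (label fibroblast), 14.8 (lymphoma) and 14.7 (sarcoma), closer together than those of either gene alone.

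Counted as a set, 9 of 9 genes with a target were at least 2-fold higher under the label 4OHT in all 3 pairs. Among the 10713 genes averaging 5 CPM or more within each labelled pair, 2.39% were that much higher. In 9 of 9 genes all libraries labelled 4OHT lay above all libraries labelled EtOH, as did 30.4% of the 10713. Both counts follow from how the genes were selected and nothing is read from them. Gm4951, Tgtp1 and Tgtp2 were below 5 CPM in the libraries labelled EtOH and reached that mean through the libraries labelled 4OHT. The median log2 difference was 3.79 over the 9 genes and 0.013 over all 15933 genes tested. Within the pairs the median of the 9 was 3.77 for the label fibroblast, 3.80 for lymphoma and 3.67 for sarcoma, so the pair labelled with 6 h of exposure lay beside the pairs labelled with 48 h. Ranked by log2 difference among the 10713 genes, Tgtp1 was number 8 and Tgtp2 number 11, Iigp1 26, Gm4070 29, Gm4951 30, Igtp 33, Ifi47 44, Irgm2 48 and Irgm1 59.

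**Figure D2:**
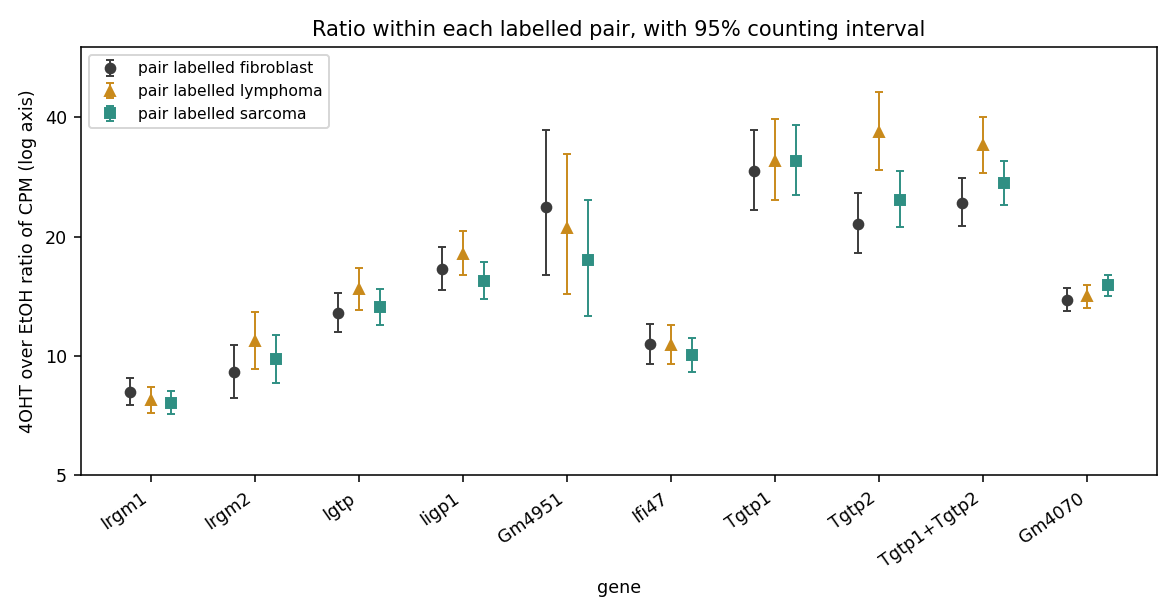
Ratio of TMM-scaled CPM, library labelled 4OHT over library labelled EtOH (log axis), in each labelled pair, with 95% Clopper-Pearson counting intervals as bars. Ratios run from 7.62 for Irgm1 in the pair labelled sarcoma to 36.7 for Tgtp2 in the pair labelled lymphoma, and Tgtp2 and the Tgtp sum are the entries where the pair labelled lymphoma stands clear of the pair labelled fibroblast.

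Levels were compared between genes per length, as TPM of the longest coding target. In libraries labelled 4OHT the order was Irgm1 (86.1 ± 4.35 TPM), Iigp1 (63.9 ± 4.80), Igtp (56.3 ± 3.03), Ifi47 (48.3 ± 2.54), Tgtp2 (41.6 ± 2.01), Tgtp1 (28.9 ± 1.47), Gm4070 (27.7 ± 1.33), Irgm2 (24.8 ± 1.47) and Gm4951 (8.12 ± 0.593 TPM, SD, n = 3 each). Of these neighbours in the order, Tgtp1 and Gm4070 overlapped and the others did not. In libraries labelled EtOH the order was Irgm1 (10.8 ± 0.284 TPM), Ifi47 (4.52 ± 0.173), Igtp (4.09 ± 0.343), Iigp1 (3.75 ± 0.237), Irgm2 (2.46 ± 0.226), Gm4070 (1.88 ± 0.0900), Tgtp2 (1.55 ± 0.419), Tgtp1 (0.981 ± 0.0408) and Gm4951 (0.383 ± 0.0412 TPM). There Ifi47, Igtp and Iigp1 overlapped from each to the next, as did Gm4070 and Tgtp2. Irgm1 was thus highest and Gm4951 lowest in both arms, while the mean of Iigp1 stood above those of Igtp and Ifi47 in libraries labelled 4OHT and below both in libraries labelled EtOH.

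Targets other than the longest were left out of these levels because short ones distort a sum of TPM. Igtp has a target of 162 bases that held 65.7 to 95.3 counts in libraries labelled 4OHT yet 39.9 TPM. Gm4070 has a target of 325 bases with 35.4 TPM, and Tgtp1 one of 396 bases with 18.4 TPM, in the same libraries. Each carried 2.07%, 2.82% and 12.0% of its gene's counts there.

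The make-up of the GTPase RNA differed between the arms. The 9 genes together came to 385.8 ± 20.7 TPM in libraries labelled 4OHT and 30.4 ± 1.39 TPM in libraries labelled EtOH (SD, n = 3 each). Irgm1 made up 22.3% ± 0.0753 of that sum under the label 4OHT and 35.5% ± 1.73 under the label EtOH. The Tgtp genes together made up 18.3% ± 0.346 under the label 4OHT and 8.29% ± 1.15 under the label EtOH. The 5 effectors summed to 1.14 ± 0.00618 times the 3 regulators in libraries labelled 4OHT and to 0.644 ± 0.0268 times in libraries labelled EtOH, with no overlap between the arms. On summed TPM the ratio of effectors to regulators was 1.00 ± 0.0272 under the label 4OHT and 0.590 ± 0.0128 under the label EtOH. These shares rest on the contrast that selected the genes and carry no test.

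**Figure D3:**
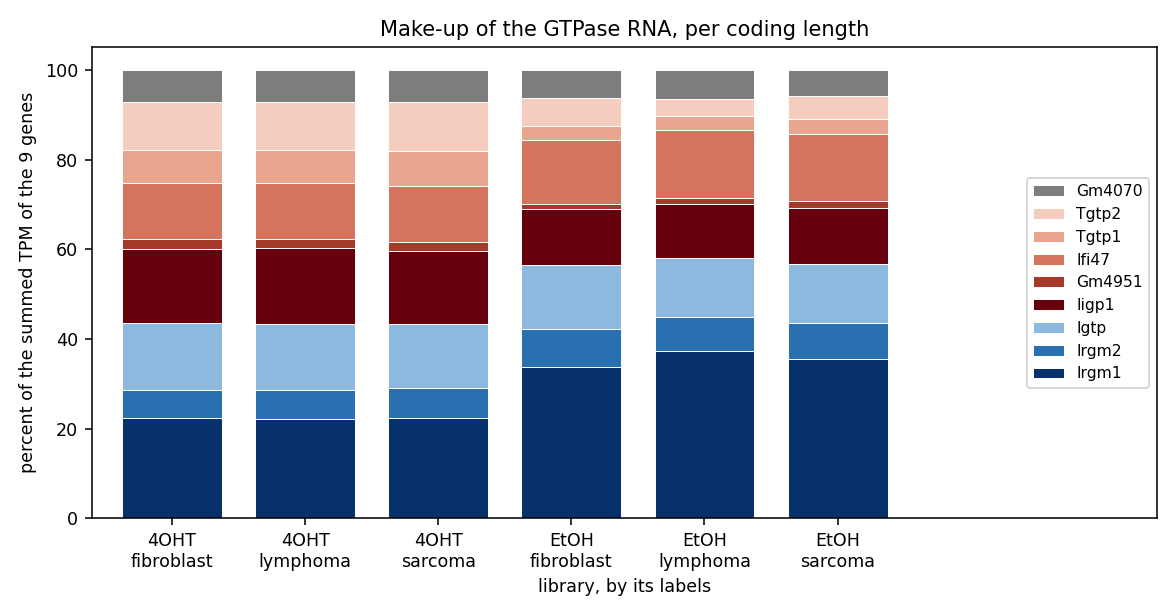
Share of each gene in the summed TPM of the 9 genes (longest coding target, percent), 1 bar per library, with libraries labelled 4OHT on the left and regulators in blue, effectors in red and Gm4070 in grey. Irgm1 takes 22.3% to 22.4% of the bar in libraries labelled 4OHT and 33.8% to 37.3% in libraries labelled EtOH.

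The cell type labels were compared with the arm as a block, a contrast that the selection did not use. No member differed between labels in any of the 3 comparisons by edgeR's quasi-likelihood test with BH adjustment over 15933 genes. Between the labels lymphoma and fibroblast 0 of 9 were called, as were 0.00628% of all genes, and log2 fold changes lay from -0.13 to 0.01. Between the labels sarcoma and fibroblast 0 of 9 were called, against 0.301% of all genes, with log2 fold changes from -0.12 to 0.06. Between the labels lymphoma and sarcoma 0 of 9 were called, against 0.220% of all genes, with log2 fold changes from -0.12 to 0.02. Standard errors were 0.05 to 0.11, and 0 of 9 genes reached an unadjusted p under 0.05 in any of the 3. Limma also called 0 of 9 in each, and so did DESeq2, which gave an adjusted p to 8 of the 9 between the labels lymphoma and sarcoma. So few genes of any kind differed between the labels that a count of 0 is near the background, and a p that misses the threshold does not show that levels are equal.

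Single genes show how small these differences were. Igtp averaged 77.0 CPM over the 2 libraries labelled lymphoma and 80.1 CPM over the 2 labelled fibroblast, a log2 fold change of -0.10 ± 0.06 (SE; edgeR, BH-adjusted p = 1.00). Tgtp2 averaged 52.1 CPM under the label lymphoma and 53.8 CPM under the label fibroblast, a log2 fold change of -0.13 ± 0.10 (edgeR, BH-adjusted p = 1.00). In the libraries labelled 4OHT it had 101.4 CPM (lymphoma) and 102.9 CPM (fibroblast). In those labelled EtOH it had 2.768 CPM (lymphoma) and 4.775 CPM (fibroblast), a wider gap that these averages hide. Gm4951 averaged 9.80 CPM under the label sarcoma and 10.9 CPM under the label fibroblast, a log2 fold change of -0.12 ± 0.11 (edgeR, BH-adjusted p = 0.899).

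**Figure D4:**
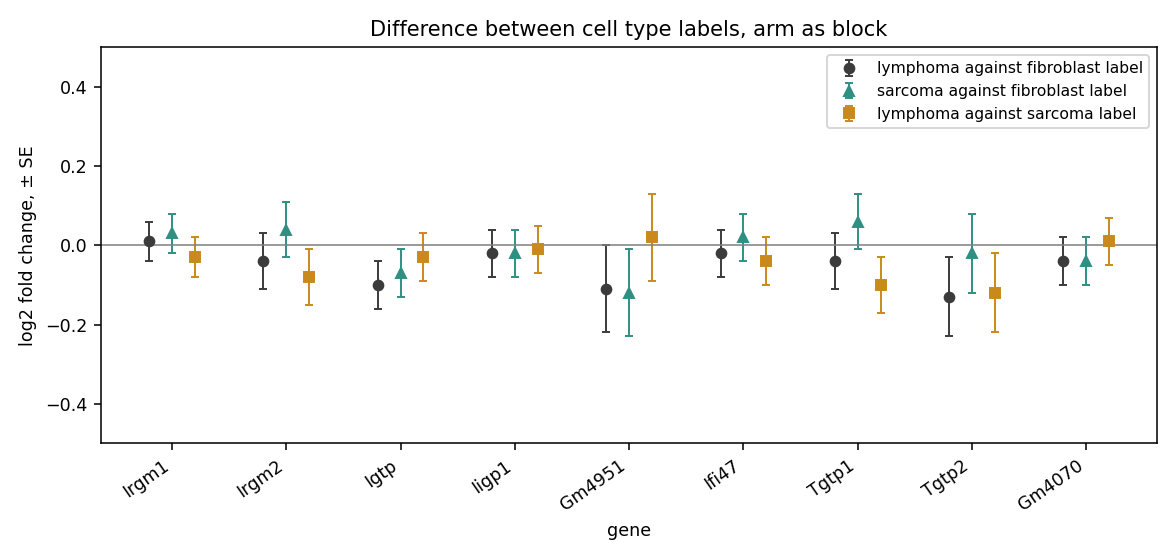
Log2 fold change of each gene between cell type labels, from edgeR with the arm as block, with bars of 1 standard error. All 27 values lie between -0.13 and 0.06, and no gene was called in any of the 3 comparisons.

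Most other genes of the same families that could be tested also rose. Of 16 further listed immunity-related and very large GTPase genes, 8 had a target and 7 were tested against the arm. By edgeR (BH-adjusted p under 0.05) 6 of the 7 rose under the label 4OHT, where 25.0% of all genes rose, and 1 fell, where 24.6% of all genes fell, with a median log2 fold change of 3.92 against 0.015 over all genes. Gvin1 had 202.3 ± 12.8 CPM under the label 4OHT and 13.0 ± 1.97 CPM under the label EtOH, a log2 fold change of 3.96 ± 0.06 (SE; edgeR, BH-adjusted p = 3.44e-13). The near-identical genes 9930111J21Rik1 and 9930111J21Rik2, whose coding sequences match at 99.6% of bases, had log2 fold changes of 3.92 ± 0.10 and 3.47 ± 0.09, and their split is uncertain. Gm5431 (4.84 ± 0.19), Gm12185 (4.27 ± 0.14) and F830016B08Rik (3.76 ± 0.20) were at 0.230, 0.629 and 0.337 CPM in libraries labelled EtOH. Gm5431 had 5 to 9 counts and F830016B08Rik 8 to 13 in those libraries, and both passed the filter through the libraries labelled 4OHT. Gvin1 is hardly told from the selected gene Gm4070, so its test is not separate from the selection. The 6 rises are therefore not 6 independent results. The annotated Gm12185 overlaps both 9930111J21Rik1 and Tgtp1 on the same strand.

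Irgq fell in the main test and Irgc1 was too low to test, and neither is known as an interferon-induced gene. Irgq, a quasi-GTPase of the family that lacks a working nucleotide-binding site, had 9.55 ± 0.254 CPM under the label 4OHT and 11.4 ± 0.333 CPM under the label EtOH, a log2 fold change of -0.26 ± 0.07 (SE; edgeR, BH-adjusted p = 0.0110). DESeq2 (BH-adjusted p = 0.192), limma (0.207) and edgeR without the pair labelled lymphoma (0.0828) did not call it. Irgc1, known from testis, had 1 count in each of 2 libraries and 0 in the other 4, where 3 counts would be 0.0797 to 0.113 CPM.

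The guanylate-binding proteins, interferon-induced GTPases that reach the same vacuoles as the effectors, were higher in every gene tested. By edgeR (BH-adjusted p under 0.05) 8 of the 8 tested rose, of 11 listed, where 25.0% of all genes rose. The median log2 fold change was 4.27, or 4.04 with Gbp10 at its lower bound. Gbp3 had 500.2 ± 8.21 CPM under the label 4OHT and 25.3 ± 1.10 CPM under the label EtOH, a log2 fold change of 4.30 ± 0.05. Gbp5, which also serves inflammasome activation, had 85.4 ± 2.85 CPM under the label 4OHT and 2.14 ± 0.236 CPM under the label EtOH, a log2 fold change of 5.33 ± 0.07. Gbp10 had 12 to 25 counts in libraries labelled 4OHT and 0 in all libraries labelled EtOH, at least 7.10-fold higher against a floor of 3 counts per library. Gbp4 had 124 counts over the libraries labelled 4OHT and 4 over those labelled EtOH, a ratio of 35.4 (95% counting interval 13.5 to 132.1). Gbp4 and Gbp10 passed the filter on low counts through the libraries labelled 4OHT, so their direction was set by that filter.

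Of the 19 listed interferon receptor and JAK-STAT-IRF genes, 17 were tested. Over all genes 25.0% rose and 24.6% fell. By edgeR (BH-adjusted p under 0.05) 15 of the 17 rose, Socs3 fell and Tyk2 was not called, with a median log2 fold change of 0.90. The count of genes that rose was 11 with DESeq2 and 9 with limma, and neither called Socs3. Stat2, a part of the complex that binds the ISRE element, had 159.3 ± 1.54 CPM under the label 4OHT and 45.7 ± 5.62 CPM under the label EtOH, a log2 fold change of 1.81 ± 0.06. Irf1, an interferon-induced transcription factor, had a log2 fold change of 1.61 ± 0.04. The receptor genes changed little: Ifngr1 by 0.19 ± 0.04, Ifngr2 by 0.20 ± 0.05, Ifnar1 by 0.14 ± 0.05 and Ifnar2 by 0.25 ± 0.04 on the log2 scale. Ifnar1 was not called with any of the 3 pairs left out, Ifngr1 not without the pair labelled lymphoma, DESeq2 called none of Ifngr1, Ifngr2 and Ifnar1, and limma none of Ifngr1, Ifnar1 and Ifnar2. Ifng, the gene of interferon gamma, was at 0 in all 6 libraries. Ifnb1, the gene of interferon beta, had 38 to 57 counts in each library labelled 4OHT and 1 or 2 in each labelled EtOH, a pooled ratio of 41.2 (95% counting interval 15.7 to 153.1). It passed the filter on low counts through the libraries labelled 4OHT.

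Genes that work beside the GTPases at vacuoles showed smaller and mixed differences. The ATG8 conjugation machinery, which in mouse cells is needed for the effectors to load correctly, had 12 genes tested. Over all genes 25.0% rose and 24.6% fell. By edgeR (BH-adjusted p under 0.05) 1 of the 12 rose, 2 fell and 9 were not called, with a median log2 fold change of 0.04. The one that rose was Atg16l1, a scaffold of the conjugating complex, at 25.8 ± 0.283 CPM under the label 4OHT and 17.3 ± 1.78 CPM under the label EtOH (log2 fold change 0.57 ± 0.07). Gabarap fell by 0.18 and Map1lc3a by 0.14 on the log2 scale, both of them ATG8 proteins. DESeq2 and limma did not call Map1lc3a, nor did edgeR without the pair labelled lymphoma or without the pair labelled sarcoma, and limma did not call Gabarap.

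Of 7 autophagy adaptors and ubiquitin ligases, 4 rose and 1 fell by edgeR (BH-adjusted p under 0.05), where 25.0% and 24.6% of all genes did. The median log2 fold change was 0.24. Trim21, an antibody-binding ubiquitin ligase, had a log2 fold change of 2.06 ± 0.06, Sqstm1, the adaptor p62, 0.61 ± 0.05, and Optn 0.54 ± 0.05, while Calcoco1 fell by 0.32. Limma called 3 rises and no fall, leaving out Tax1bp1 and Calcoco1. Of 12 tested dynamin-family GTPases 3 rose, 4 fell and 5 were not called, against 25.0% and 24.6% of all genes that rose and fell, with a median of 0.04. DESeq2 called 3 rises and 2 falls, and limma 2 and 0. The large values in that list belonged to the antiviral Mx1 (5.25 ± 0.11) and Mx2 (3.49 ± 0.05), whereas Atl1 fell by 0.75 and Dnm1 by 0.28. The fall of Atl1 was not called by DESeq2 or without the pair labelled sarcoma, and that of Dnm1 not by limma.

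**Figure D5:**
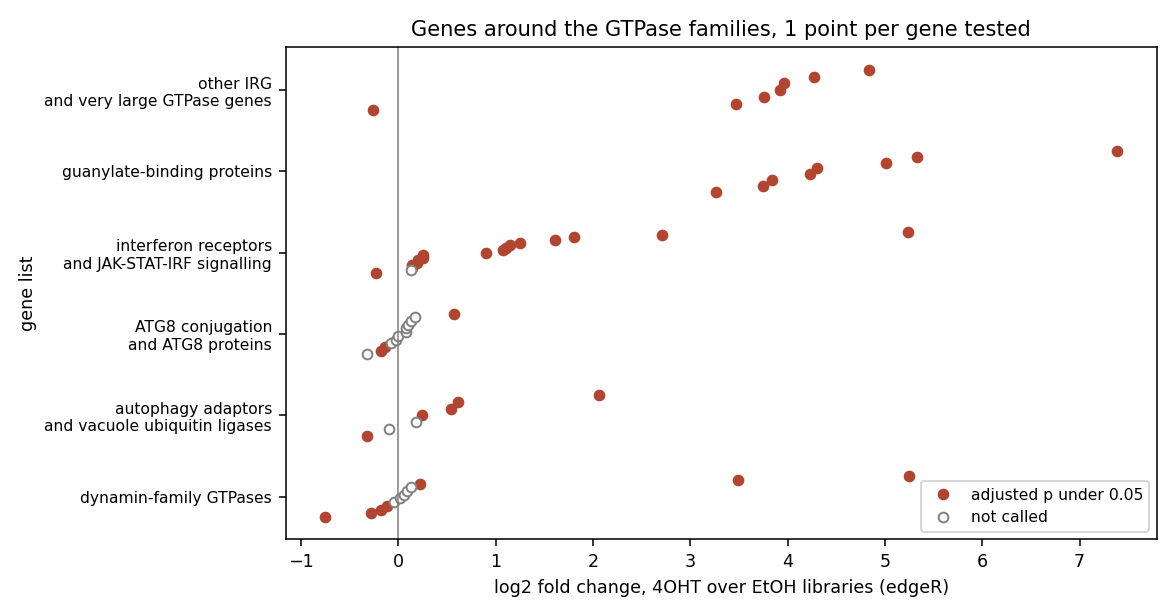
Log2 fold change of each tested gene of 6 lists, libraries labelled 4OHT over libraries labelled EtOH, from edgeR, with filled points for BH-adjusted p under 0.05 and open points for genes not called. The other GTPase genes and guanylate-binding proteins lie at 3.26 or above, apart from Irgq at -0.26 and with Gbp10 drawn at a fitted value where the counts give only a lower bound of 2.83, and the ATG8 genes lie between -0.32 and 0.57.

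The 9 members with a target lie in 4 clusters with other genes between and around them. The clusters are chr11:48861968-49096974, chr11:58199556-58222782, chr18:60212080-60392634 and chr7:105895139-106215326 in GRCm38, and Gm12250 lies just before the second, at chr11:58187739-58189012. Of the 48 tested genes inside them or within 500000 bases that belong to no list here, 13 rose and 10 fell by edgeR (BH-adjusted p under 0.05), near the 25.0% and 24.6% of all genes, with a median log2 fold change of -0.03. The window was chosen after the values were seen. At least 2-fold higher among them were Gm4841 (4.07 ± 0.16), Cd74 (3.66 ± 0.23), Psme2b (3.53 ± 0.13) and Hpx (1.13 ± 0.28). Gm4841, listed by RefSeq also as Ifgga3, lies between Gm4951 and Iigp1 and had 7.45 CPM under the label 4OHT and 0.445 CPM under the label EtOH. It counts as a neighbour only because no list here holds it. Whether it is a further GTPase of the family was not checked, so the family list may be incomplete. Cd74, the invariant chain of MHC class II, had 3.64 CPM under the label 4OHT and 0.291 CPM under the label EtOH. It passed the filter on low counts through the libraries labelled 4OHT. Hpx was low in both arms, at 0.828 CPM under the label 4OHT and 0.373 CPM under the label EtOH. Rack1, a ribosomal scaffold protein near Irgm1, had 1566 CPM under the label 4OHT and 1605 CPM under the label EtOH and was not called (log2 fold change -0.03 ± 0.05), whereas Rps14, a ribosomal protein beside the chromosome 18 cluster, fell by 0.20 on the log2 scale.

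Outside the lists, the genes whose profile over the 6 libraries lay nearest to the median profile of the members were found among 10782 candidates averaging 5 CPM or more over the 6 libraries, a looser limit than the one within each pair above. The measure is the root mean square difference of centred log2(CPM + 0.5) values over 6 libraries. It was 0.0713 for Ifit1, 0.108 for Hap1, 0.151 for Ifi209, 0.154 for Saa3 and 0.163 for Tnfsf10. The median profile is mainly the difference between arms that selected the members, so nearness describes a difference of like size and nothing more. Hap1, Ifi209, Saa3 and Tnfsf10 were below 5 CPM in every library labelled EtOH and reached the limit through those labelled 4OHT. Tnfsf10 had 0.372 to 0.473 CPM under the label EtOH. For the members themselves it ran from 0.0536 for Igtp to 0.473 for Tgtp1. Ifit1 had 426.9, 418.0 and 414.8 CPM in libraries labelled 4OHT, against 28.3, 27.3 and 28.2 CPM in libraries labelled EtOH.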

How the data were processed

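Total RNA was sequenced in 6 libraries, made after ribosomal RNA removal with a stranded kit, per the labels' protocols. The authors deposited estimated counts and TPM per transcript, for which the submitters' processing notes name kallisto 0.43.0 and the build GRCm38. The transcript set and strand setting are not given in the sources used here. Kallisto shares reads between like sequences by likelihood, so Tgtp1 with Tgtp2 and Gm4070 with Gvin1 are given as sums too. The near-identical 9930111J21Rik1 and 9930111J21Rik2 are given singly only. Targets have coding length where a coding sequence exists, which leaves out reads in untranslated regions.

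The 76055 targets were joined by identifier to GENCODE M21. 1006 did not match and held 0.393% to 0.410% of the counts. Estimated counts were summed per gene and rounded. TMM-scaled CPM and log2(CPM + 0.5) differences were computed within each labelled pair, and ratios of CPM were given 95% Clopper-Pearson intervals. Tests used edgeR 4.0.16 (quasi-likelihood, two-sided, filterByExpr by arm, BH-adjusted p under 0.05 over 15933 genes) on all 6 libraries, with the cell type label as block for the arm and the arm as block for the labels. This left 2 residual degrees of freedom and 9.23 prior ones. An SE is the absolute log2 fold change divided by the square root of F. For genes below the Poisson bound edgeR takes the larger p of a Poisson fit, which can then be far from that SE. The fit was tested on simulated counts.

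The pairing comes from the labels (same cell type label). Within a pair, deviations of genes from their arm mean correlated at 0.0324 (fibroblast), 0.139 (lymphoma) and 0.141 (sarcoma). The genes and lists were chosen with earlier results of these data known. Named genes were all members, all further family genes with a count, up to 4 called genes of largest absolute log2 fold change in each pathway list, the 5 nearest profiles, and Mdm2 and Trp53 as label checks. A gene that this rule names is not reported here. The interferon receptors and neighbours were named beyond that rule, after their values were seen. Alternatives were DESeq2 1.42.0, limma 3.58.1 on log2(TPM + 1), other scalings, pseudocounts, filters, blocks and each pair or library left out. R 4.3.3, Python 3.11.15, pandas 2.3.3, numpy 2.4.6, scipy 1.17.1, Biopython 1.88 and matplotlib 3.10.9 were used.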

Additional observations from a re-analysis of the deposited data

How the results depend on the processing

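All 9 genes stayed at least 2-fold higher in every pair under all alternatives run. The median log2 difference of the members, 3.79, was 3.61 on summed TPM and 3.54 with a pseudocount of 2 CPM. For single members and the Tgtp sum no alternative turned a direction, and 9 of 10 values moved by more than 1 SD with a pseudocount of 2 CPM, 4 of 10 on summed TPM and 2 of 10 with a pseudocount of 0.1 CPM. Over all genes, 3981 rose and 3920 fell, against 2427 and 2420 with DESeq2 and 1475 and 899 with limma on log2(TPM + 1), where the split also leaned to rises. Without the replicate block the counts were 3742 and 3772, and the members' differences use no block.

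Counts of genes differing between labels varied widely. For lymphoma against fibroblast (1 gene) they were 4 with DESeq2, 121 with no count filter, 0 over protein-coding genes and 3 to 157 with 1 library left out (106 and 157 without the libraries labelled fibroblast and 4OHT or EtOH, 25 and 3 without those labelled lymphoma and 4OHT or EtOH). For sarcoma against fibroblast (48) they were 24 with DESeq2, 244 with no filter, 0 with limma, 1 over protein-coding genes and 41 to 223 with 1 library left out (154 and 223 without those labelled fibroblast and 4OHT or EtOH, 85 without that labelled sarcoma and EtOH). For lymphoma against sarcoma (35) they were 422 with no filter, 9 over protein-coding genes and 25 to 92 with 1 library left out (61 without that labelled lymphoma and 4OHT, 92 without that labelled sarcoma and EtOH). The cause was not tested. No member was called in any of these fits. Depth limits Gm4951 and the Tgtp genes most, with 25 to 158 counts in libraries labelled EtOH.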
